A study of Mus musculus with 14 samples.

Results

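The small leucine-rich proteoglycans are a family of secreted matrix proteins, and 10 of their genes were followed here by name: Dcn, Bgn, Aspn, Fmod, Lum, Prelp, Kera, Omd, Ogn and Epyc. All 10 were found among the 39179 genes of the differentiation table and among the 35886 genes obtained by summing transcripts in the sorting experiment. All libraries were made from polyA RNA of Ocy454 cells, an osteocyte-like mouse cell line that carries a thermosensitive large T antigen. The cells grow at a permissive temperature and begin to differentiate when they are moved, at confluence, to a warmer incubator. The differentiation experiment comprised 8 libraries of unsorted cells, 2 biologic replicates at each of days 1, 7, 10 and 14 after that move. The sorting experiment comprised 6 libraries made after 17 days of differentiation, 3 from the 10% of live cells with the brightest surface CD61 signal (CD61high) and 3 from the 10% with the dimmest (CD61low). CD61 is the integrin beta-3 subunit, encoded by Itgb3. No group carried a genetic change or drug treatment that the others lacked, and all results describe a single cell line grown in 2 dimensions on plastic.

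These proteins share a core of leucine-rich repeats that folds into a curved solenoid, and most bind fibrillar collagen and carry sulfated sugar chains. They are known for setting the spacing and thickness of collagen fibrils and for binding growth factors of the TGF-beta family in the matrix. Decorin (Dcn) and biglycan (Bgn) carry chondroitin or dermatan sulfate, and biglycan is an abundant proteoglycan of bone. Asporin (Aspn) is their closest relative and has a run of aspartates at its amino end. Fibromodulin (Fmod), lumican (Lum), keratocan (Kera) and osteomodulin (Omd) can carry keratan sulfate, osteomodulin being a protein of mineralized tissues, while Prelp binds heparan sulfate through a basic amino end. Osteoglycin (Ogn) and epiphycan (Epyc) form a separate branch, epiphycan being a cartilage protein.

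The differentiation libraries held 27518605 to 34311238 reads on genes, and the sorted libraries 18815602 to 19220064 estimated counts. Itgb3 was at 5.31, 5.54 and 6.10 CPM (read counts brought to a library total of 1000000, here after TMM scaling between libraries) in the 3 CD61low libraries and at 130.1, 100.1 and 103.6 CPM in the 3 CD61high libraries. Of 13 osteoblast and osteocyte markers, 11 were above 1 CPM at day 14, with Mepe at 0.411 CPM and Fgf23 at 0. Endothelial markers (4 genes) summed to at most 0.861 CPM in any library, and of 5 macrophage and blood cell markers Ptprc, Adgre1 and Tyrobp were each below 0.063 CPM and Csf1r reached at most 0.827 CPM. Cd68, a lysosomal protein of macrophages that other cells also express, was at 14.2 CPM in CD61low and 8.07 CPM in CD61high and carried most of that list's sum, which was 12.3 to 15.4 CPM in CD61low and 7.59 to 8.68 CPM in CD61high. Of 7 tendon and fibroblast markers, Tnmd and Dpp4 were below 0.15 CPM, whereas Scx and Pdgfra were expressed.

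During differentiation 4 members fell and stayed low while the others did not. Osteoglycin, asporin, osteomodulin and fibromodulin were all lower at days 7, 10 and 14 than at day 1, by 2.13 to 31.3 times, and most of the decrease was already present at day 7. Prelp was 2.15 times higher at day 14 than at day 1, decorin was highest at day 10, and biglycan stayed within 1.34 times of its day 1 level. Lumican was barely detected, and keratocan and epiphycan were not detected. A gene was called changed when limma on log2(CPM + 1) gave an adjusted p below 0.01 with a Log2FC (log2 fold change) above 1 or below -1. Of the 10 members, 7 were tested, since a gene had to exceed 1 CPM in at least 1 library. Day 7 against day 1 gave 0 members higher and 4 lower, against 4.49% and 4.62% of the 12725 genes tested (9.11% in either direction). At an unadjusted p below 0.05 in limma 2 members were higher there, and edgeR on reads recovered from the CPM called 0 higher. Day 10 against day 1 gave 1 higher and 4 lower (6.06% and 4.42% of all genes), and day 14 against day 1 gave 1 higher and 4 lower (7.51% and 5.90%). Those comparisons share the day 1 libraries, so that they do not repeat each other independently. The median Log2FC of the 7 members was -2.35 at day 14 against day 1, where the median of all genes tested was -0.03. Because whole cultures were sequenced, fewer cells expressing a gene and less RNA per cell cannot be told apart.

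**Figure D1:**
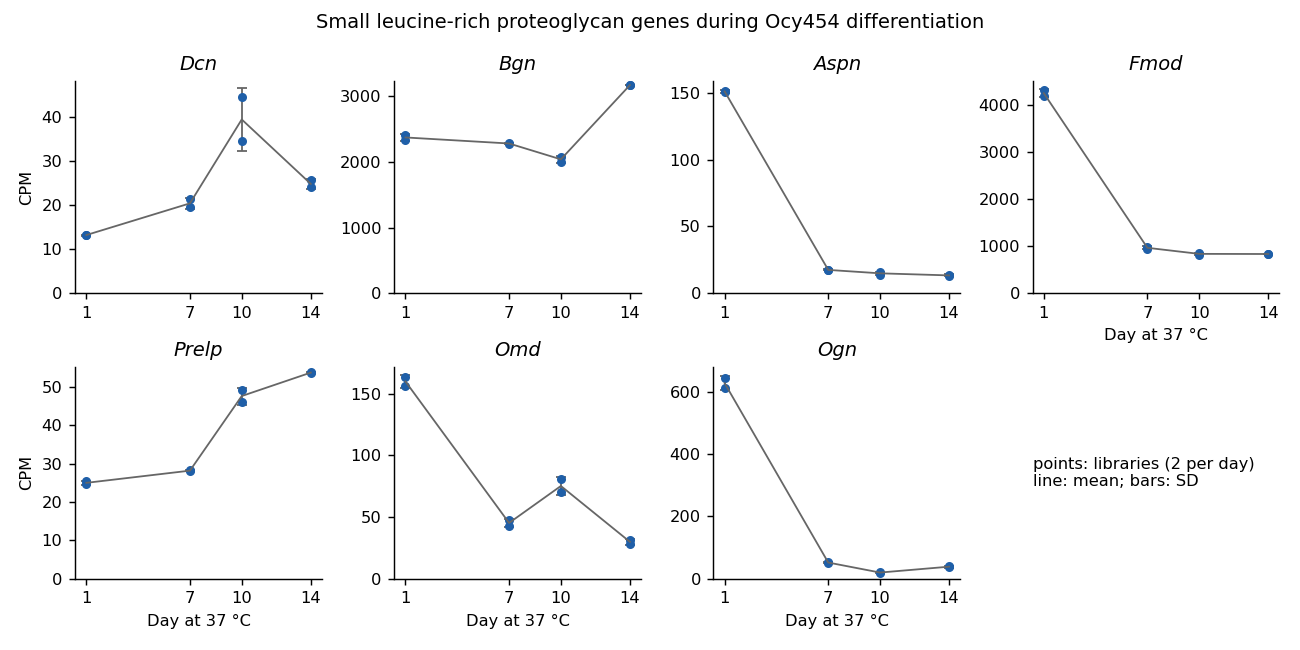
CPM of the 7 tested members (y axis, linear, from 0) by day of differentiation (x axis), with each library as a point, the mean as a line and the SD as bars (n = 2). Aspn, Fmod, Omd and Ogn drop between day 1 and day 7, Omd has a second, smaller peak at day 10 where Dcn is highest, and Bgn reaches 3172 CPM at day 14.

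Asporin, osteomodulin and osteoglycin lie side by side on the plus strand of chromosome 13 (GRCm39, GENCODE M39), at chr13:49697609-49721057, chr13:49735938-49746298 and chr13:49761349-49780412. Gaps of 14.9 and 15.1 kb separate them. Their upstream sequences are shown because these 3 neighbours were all lower at day 14 than at day 1. Their courses differed in the later days, and in the sort osteomodulin stood apart from asporin and osteoglycin. The RefSeq windows (GRCm38.p6, plus strand) give the 250 bases before each RefSeq start, with capitals marking matches to the motifs listed after them. The RefSeq starts are not spaced as the GENCODE gene starts above, so the annotations place some of them differently.
Aspn, chr13:49544193-49544442: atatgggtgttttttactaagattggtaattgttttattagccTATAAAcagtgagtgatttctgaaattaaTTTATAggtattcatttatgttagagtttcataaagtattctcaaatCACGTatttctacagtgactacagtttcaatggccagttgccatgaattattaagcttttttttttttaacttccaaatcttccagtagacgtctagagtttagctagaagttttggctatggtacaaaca
Omd, chr13:49582212-49582461: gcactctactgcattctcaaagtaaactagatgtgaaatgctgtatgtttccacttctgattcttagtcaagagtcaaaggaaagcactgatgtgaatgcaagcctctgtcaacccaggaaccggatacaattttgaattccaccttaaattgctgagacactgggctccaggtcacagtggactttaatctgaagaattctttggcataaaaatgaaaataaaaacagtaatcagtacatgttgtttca
Ogn, chr13:49607765-49608014: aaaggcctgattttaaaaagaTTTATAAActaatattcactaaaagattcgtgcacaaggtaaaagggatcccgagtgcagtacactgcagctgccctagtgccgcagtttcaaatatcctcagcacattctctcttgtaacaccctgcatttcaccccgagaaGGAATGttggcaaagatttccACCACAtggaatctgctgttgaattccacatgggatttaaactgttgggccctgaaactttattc
Both strands were searched for the core letters of 8 motifs, TEAD, RUNX, AP-1, MEF2, GC box, TATA box, HIF core and SMAD. The Ogn window holds a TEAD match (GGAATG) at 86 to 81 bases before the start, letters found in 12.6% of 32851 windows of the same length, and a RUNX match (TGTGGT, here on the minus strand) at 65 to 60 bases, found in 14.0%. It also holds 2 overlapping TATA box matches (TATAAA) that begin 229 and 227 bases before the start, and the Aspn window holds 2 that begin 207 and 178 bases before it, letters found in 12.4% of windows. The HIF core match (ACGTG) in the Aspn window lies at 131 to 127 bases, and 16.6% of windows hold one. None of the 8 motifs is in the Omd window, and the AP-1 letters (TGANTCA, in 6.75% of windows) and those of MEF2 (in 3.20%) are in none of the windows shown. A match of this kind is a description of letters and not a binding site.

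Osteoglycin gave the largest decrease of the family. Its 2 libraries were at 612 and 642 CPM at day 1, 52.4 and 51.7 CPM at day 7, 20.2 and 19.8 CPM at day 10, and 36.4 and 41.2 CPM at day 14. No 2 days overlapped, and the lowest point was day 10. The mean was 12.0 times lower at day 7 than at day 1 (Log2FC -3.57, SE 0.051, adjusted p = 1.8e-27, limma), 31.3 times lower at day 10 (Log2FC -4.90, adjusted p = 2.3e-30) and 16.1 times lower at day 14 (Log2FC -3.98, adjusted p = 9.3e-29). The size of these p-values rests on the fit. At day 7 the adjusted p was 5.1e-08 with limma without the trend and 8.3e-09 with limma without a filter. Between day 7 and day 10 osteoglycin fell again (Log2FC -1.34, adjusted p = 4.3e-17), the only member called in that comparison, in which 0.786% of all genes were lower and 1.43% higher (2.22% in all). From day 10 to day 14 it was 1.94 times higher (Log2FC 0.92, adjusted p = 4.5e-14), under the fold threshold. That last value lay close to the threshold, reaching 1.01 with edgeR on the recovered reads and without day 14 replicate 1.

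Asporin was at 152 and 151 CPM at day 1, 17.7 and 17.2 CPM at day 7, 13.9 and 15.8 CPM at day 10, and 12.7 and 13.9 CPM at day 14. The later days all lay far below day 1 and within a narrow range of each other. Asporin was 8.68 times lower at day 7 than at day 1 (Log2FC -3.05, SE 0.069, adjusted p = 3.8e-23) and 11.4 times lower at day 14 (Log2FC -3.41, adjusted p = 2.0e-24). The steps from day 7 to 10 and from day 10 to 14 had Log2FC of -0.22 and -0.15, neither past the fold threshold.

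Osteomodulin did not follow its neighbours between day 7 and day 14. It was at 156 and 164 CPM at day 1, 47.5 and 43.0 CPM at day 7, 69.9 and 80.5 CPM at day 10, and 28.4 and 31.4 CPM at day 14. No days overlapped, and day 10 was the highest after day 1. Against day 1 the mean was 3.53 times lower at day 7 (Log2FC -1.80, SE 0.061, adjusted p = 2.9e-19), 2.13 times lower at day 10 (Log2FC -1.08, adjusted p = 1.8e-14) and 5.35 times lower at day 14 (Log2FC -2.38, adjusted p = 3.9e-22). The day 10 call was lost without day 10 replicate 1 (Log2FC -0.98). From day 10 to day 14 osteomodulin fell 2.51 times (Log2FC -1.30, adjusted p = 1.4e-15), the only member called there, where 0.872% of all genes were lower and 2.09% higher (2.96% in all). The ratio of Ogn to Omd reads was 3.92 and 3.93 on day 1, then 1.10 and 1.20 on day 7, then 0.289 and 0.246 on day 10, and finally 1.28 and 1.31 on day 14. Osteoglycin reads thus outnumbered those of osteomodulin at every day except day 10.

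The gene Cenpp, which encodes a centromere protein, spans all 3 on the minus strand (chr13:49617492-49806396), and its exons share 267 bases with those of Aspn, 1155 with those of Ogn and 0 with those of Omd. Cenpp was at 13.4 CPM at day 1 and 11.4 CPM at day 14, a difference that was not called (Log2FC -0.22, adjusted p = 0.070). Whether strand was used in counting is not given in the sources used here, so a share of Aspn or Ogn reads from Cenpp transcripts cannot be told apart from their own.

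Fibromodulin, which promotes ordered collagen fibrils, was the member with the most reads at day 1. Fmod lies on the plus strand at chr1:133964992-133976015, 107 kb from Prelp, which is read from the minus strand (chr1:133837335-133857971). Fmod was at 4187 and 4304 CPM at day 1, 985 and 940.3 CPM at day 7, 850.1 and 818 CPM at day 10, and 825 and 837 CPM at day 14. The later libraries all fell within 818 to 985 CPM, and days 10 and 14 overlapped. Fibromodulin was 4.41 times lower at day 7 than at day 1 (Log2FC -2.14, SE 0.039, adjusted p = 3.0e-25) and 5.11 times lower at day 14 (Log2FC -2.35, adjusted p = 2.6e-26). Between days 10 and 14 the Log2FC was -0.005 (adjusted p = 0.92).

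Prelp moved the other way. It was at 25.4 and 24.6 CPM at day 1, 28.3 and 28.1 CPM at day 7, 49.2 and 46.1 CPM at day 10, and 53.7 and 53.8 CPM at day 14. Both replicates of each day lay above both of the day before. The increase passed the threshold at day 14 (Log2FC 1.07, SE 0.057, adjusted p = 3.7e-15) and came close to it at day 10 (Log2FC 0.90, adjusted p = 1.9e-13). So the fibromodulin and Prelp genes, neighbours on chromosome 1, had Log2FC of opposite sign.

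Biglycan was at 2332 and 2414 CPM at day 1, 2276 and 2285 CPM at day 7, 2004 and 2075 CPM at day 10, and 3173 and 3170.2 CPM at day 14. Day 14 lay above every earlier library, but biglycan passed the fold threshold in none of the 5 comparisons of days. At day 14 against day 1 the Log2FC was 0.42 (SE 0.042, adjusted p = 1.1e-09) and at day 14 against day 10 it was 0.64 (adjusted p = 9.8e-13). Decorin, a close relative of biglycan, was at 13.3 and 13.1 CPM at day 1, 21.4 and 19.5 CPM at day 7, 34.5 and 44.5 CPM at day 10, and 24.1 and 25.7 CPM at day 14. Day 10 held both highest libraries, and the replicates of that day were also the furthest apart. Decorin rose between day 1 and day 10 (Log2FC 1.50, SE 0.087, adjusted p = 2.7e-14), while day 14 against day 1 had a Log2FC of 0.86 (adjusted p = 1.5e-09), under the fold threshold.

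Decorin shares a stretch of chromosome 10 with lumican, keratocan and epiphycan, all on the plus strand from Dcn at chr10:97315275-97358155 to Epyc at chr10:97479853-97518316. Lumican (chr10:97400990-97408577) had 4 and 12 reads on day 1, then 5 and 1 on day 7, then 14 and 12 on day 10, and finally 11 and 13 on day 14, or 72 reads of 250823570 in all. Its CPM lay between 0.035 and 0.472, too low for the test. Keratocan, which like lumican is known from the cornea, and epiphycan had 0 reads in all 8 libraries, which allows a level of up to 0.012 CPM (3 reads of the pooled total, counting error only).

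The make-up of the family was reordered between day 1 and day 7. Fibromodulin held 56.0% and 55.8% of the member reads on day 1, but only 19.9% and 20.1% on day 14, while biglycan held 31.2% and 31.3% on day 1, but 76.4% and 76.0% on day 14. The ratio of Fmod to Bgn reads was 1.80 and 1.78 on day 1, then 0.433 and 0.411 on day 7, then 0.424 and 0.394 on day 10, and finally 0.260 and 0.264 on day 14. Osteoglycin held 8.18% and 8.33% of member reads at day 1 and below 1.6% in every later library. Together the members took 0.748% and 0.771% of all reads on day 1, then 0.343% and 0.339% on day 7, then 0.304% and 0.310% on day 10, and finally 0.415% and 0.417% on day 14. On CPM divided by gene length, fibromodulin ranked first and biglycan second at day 1 and the order was the reverse at days 7, 10 and 14, whichever of 3 gene lengths was used. Osteoglycin took the third place at day 1 and osteomodulin took it on the other days. The order of the lower members depended on the length chosen, and the libraries of Ogn and Dcn overlapped at day 10.

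**Figure D2:**
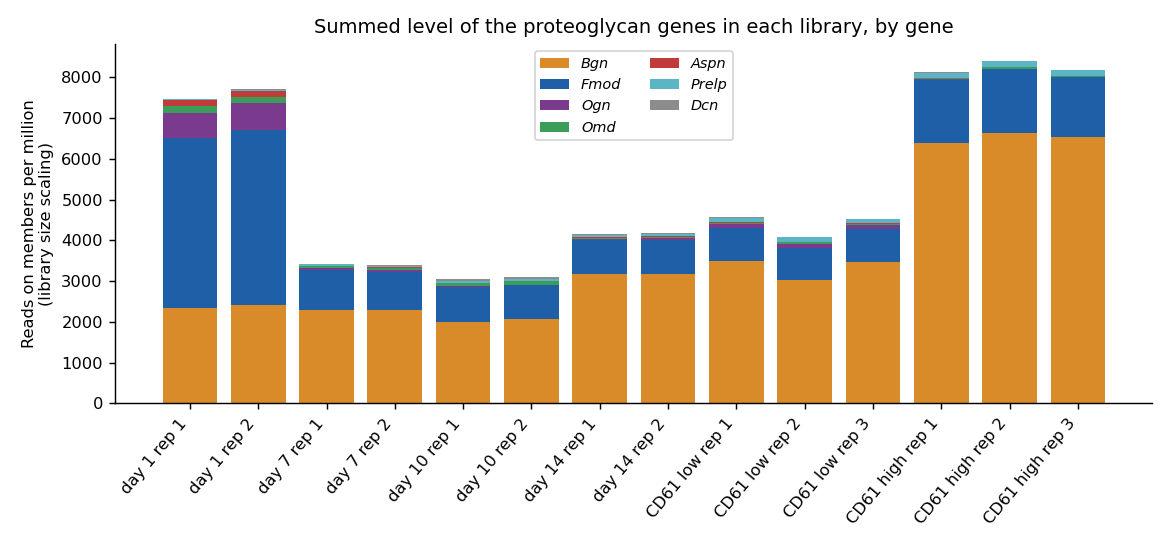
Member reads in CPM (y axis, library size scaling), stacked by gene, for the 8 differentiation and 6 sorted libraries (x axis). Fmod (blue) makes up more than Bgn (orange) only in the 2 day 1 libraries, and the CD61high libraries reach 8119 to 8397 CPM against 4077 to 4563 CPM in CD61low. The 2 experiments were quantified with different tools and their heights were not compared.

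In the sort, fibromodulin and biglycan were higher in CD61high than in CD61low cells, and osteoglycin was 16.9 times lower. Asporin was also low in CD61high cells but had too few counts there for the test. Prelp, osteomodulin and decorin differed by less than the fold threshold. The test was edgeR's quasi-likelihood test with the same thresholds, and a gene had to reach 5 normalized counts in each of the 6 libraries to enter it. Of the 10 members 6 were tested, and 2 were higher and 1 lower, against 4.84% higher and 4.37% lower among 12077 genes (9.22% in all). The median Log2FC of the 6, without asporin, was 0.54, against 0.00 for all genes. The CD61high libraries had TMM factors of 0.895 to 0.909 and the CD61low libraries 1.10 to 1.13, so this scaling adds to every increase. With scaling by library size alone the median of all genes was -0.30, biglycan and fibromodulin had Log2FC of 0.97 and 0.91, and 1 member was called. Both ends of the CD61 signal were sorted from the same groups of cells. Which high and low libraries pair is not given by the labels.

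**Figure D3:**
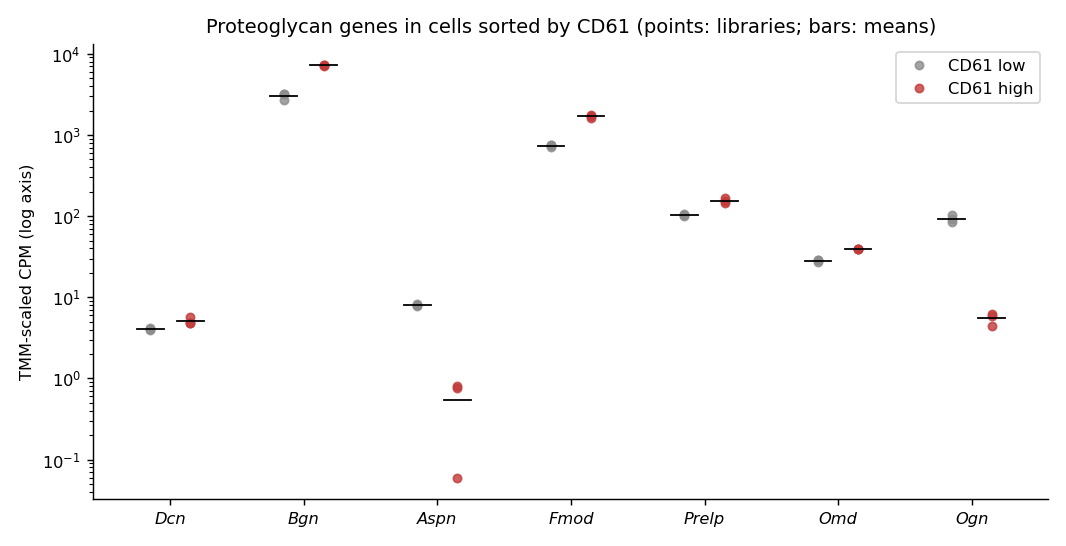
TMM-scaled CPM on a log axis (y axis) of 7 members in CD61low (grey) and CD61high (red) libraries, with each library as a point and the mean of 3 as a bar. Lum, with few counts and none in CD61high, is left out, as are Kera and Epyc. On this scale the groups of each gene shown are apart, but in TPM those of Omd and Dcn overlap. How many of all genes are apart was not counted. The lowest Aspn point, CD61high replicate 3, is a single count.

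Biglycan was at 3169.8, 2693 and 3183 CPM in CD61low and at 7165, 7336 and 7344 CPM in CD61high. The groups were far apart, and the mean was 2.41 times higher in CD61high (Log2FC 1.27, SE 0.084, adjusted p = 1.3e-06, edgeR). Fibromodulin was at 748, 701 and 752 CPM in CD61low and at 1731, 1737 and 1637 CPM in CD61high, 2.32 times higher (Log2FC 1.21, SE 0.068, adjusted p = 5.7e-07). Both changed by a like amount, and the ratio of Fmod to Bgn counts was 0.236, 0.260 and 0.236 in CD61low and 0.242, 0.237 and 0.223 in CD61high. The ranges of that ratio overlapped. The upstream windows of these 2 most abundant members are shown for comparison with the chromosome 13 group (RefSeq, GRCm38.p6, plus strand, 250 bases before the start, the same 8 motifs in capitals).
Bgn, chrX:73483351-73483600: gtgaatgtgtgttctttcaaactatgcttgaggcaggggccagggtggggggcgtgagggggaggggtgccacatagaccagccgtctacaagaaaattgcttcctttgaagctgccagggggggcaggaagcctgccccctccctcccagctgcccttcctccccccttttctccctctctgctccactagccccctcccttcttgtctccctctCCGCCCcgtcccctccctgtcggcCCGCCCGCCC
Fmod, chr1:134037004-134037253: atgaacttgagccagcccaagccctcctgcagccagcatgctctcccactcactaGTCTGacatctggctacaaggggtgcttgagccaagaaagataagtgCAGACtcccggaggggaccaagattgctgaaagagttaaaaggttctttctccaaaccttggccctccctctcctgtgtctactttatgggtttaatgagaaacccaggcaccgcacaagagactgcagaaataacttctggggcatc
The Bgn window ends in GC box letters (GGGCGG), with 3 matches that begin 34, 10 and 6 bases before the start, the last 2 overlapping, and 32.7% of all windows hold this motif. The Fmod window holds 2 SMAD matches (GTCTG), which begin 195 and 148 bases before the start, letters found in 42.2% of windows.

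Osteoglycin was at 91.1, 103 and 83.6 CPM in CD61low and at 5.81, 6.16 and 4.47 CPM in CD61high. The lowest CD61low library was far above the highest CD61high library, and the Log2FC was -4.08 (SE 0.13, adjusted p = 4.1e-08). Over the 14 alternatives the Log2FC ranged from -4.38 to -3.96, and the call was kept in each. Asporin had 165, 171 and 167 counts in CD61low and 13, 14 and 1 in CD61high, or 8.02 ± 0.129 against 0.543 ± 0.419 CPM (SD, n = 3). It was left out of the reported test by the single count of CD61high replicate 3. Without a filter on low counts the Log2FC was -3.87 (adjusted p = 3.9e-07), and without CD61high replicate 3 it was -3.35 (adjusted p = 1.1e-05). Cenpp, on the other strand, was at 4.47 CPM in CD61low and 3.68 CPM in CD61high (adjusted p = 0.33).

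Osteomodulin, between asporin and osteoglycin on the chromosome, was not lower in CD61high cells. It was at 27.3, 28.8 and 28.9 CPM in CD61low and at 39.7, 39.7 and 39.6 CPM in CD61high (Log2FC 0.49, SE 0.075, adjusted p = 4.0e-04), under the fold threshold. The groups did not overlap in scaled CPM, but they did in TPM, where limma on log2(TPM + 1) gave a Log2FC of 0.14 (adjusted p = 0.20), and with edgeR and library size scaling alone the Log2FC was 0.18 (adjusted p = 0.061). The ratio of Ogn to Omd counts was 3.34, 3.57 and 2.90 in CD61low and 0.146, 0.155 and 0.113 in CD61high. Osteoglycin was therefore the more counted of the pair in CD61low and the less counted in CD61high.

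Prelp was at 106, 102 and 101 CPM in CD61low and at 146, 167 and 154 CPM in CD61high, 1.51 times higher (Log2FC 0.59, SE 0.073, adjusted p = 9.1e-05). The groups did not overlap, but the difference was under the fold threshold. Decorin was at 4.11, 4.13 and 3.95 CPM in CD61low and at 4.81, 5.76 and 4.82 CPM in CD61high (Log2FC 0.34, SE 0.17, adjusted p = 0.12), which did not pass the test, and on log2(TPM + 1) the Log2FC was -0.004. Lumican had 1, 6 and 2 counts in CD61low and 0 in each CD61high library, where 0 counts allow up to 0.052 CPM over the group. Keratocan and epiphycan had 0 counts in all 6 libraries, which allows up to 0.026 CPM over them. In TPM, which takes gene length into account, biglycan came first and fibromodulin second in both groups, at 2854 ± 276 and 489.6 ± 30.3 TPM in CD61low and at 5692 ± 216 and 915 ± 48.8 TPM in CD61high (SD, n = 3). Osteoglycin had the third place in CD61low, at 75.3 ± 6.74 TPM, and the sixth in CD61high, at 3.54 ± 0.700 TPM, below decorin.

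Set side by side, the differentiation and sort values divided the members in 3. Osteoglycin and asporin were lower at day 14 than at day 1 and lower in CD61high than in CD61low cells. Fibromodulin and osteomodulin were lower at day 14 but had Log2FC above 0 in the sort, of 1.21 and 0.49. The osteomodulin value was not called there, and it was 0.14 with TPM, where the groups overlapped. Biglycan, Prelp and decorin had Log2FC above 0 in both, with a call in the sort for biglycan and at day 14 for Prelp, although the sort value of decorin was -0.004 with TPM. The comparisons share no libraries, but they differ in RNA isolation kit, quantification and cell handling, and the difference between them was not tested. Of the osteoblast and osteocyte markers, 7 of the 11 tested were higher at day 14 and 10 of the 11 tested in CD61high, beside 7.51% and 4.84% of all genes. Sost, at 0 CPM on day 1, passed the filter only through later days, which favours a higher call. Bglap had a mean of 0.680 CPM at day 1. Pdpn had lower means in both, at 28.2 and 19.3 CPM on days 1 and 14 and at 15.5 against 11.1 CPM in the sort. Col1a1 had a lower mean at day 14, 25240 CPM against 34710 CPM at day 1. The summed level of the list, most of it Col1a1, was 36010 to 36060 CPM at day 1 and 30370 to 35520 CPM at day 14. This sum was not higher at day 14, and in the sort it was 17820 to 21740 CPM in CD61low and 50710 to 53410 CPM in CD61high. Of the tendon and fibroblast markers Pdgfra was higher in both, from 103 to 284 CPM by day 14 and at 122 CPM in CD61low against 418 CPM in CD61high, the only call among the 4 tested at day 14 and the 3 tested in the sort. Scx and Mkx had lower means in both, Scx being at 53.3 and 27.2 CPM on days 1 and 14 and at 15.7 CPM in CD61low against 10.1 CPM in CD61high, and Mkx at 8.84 and 4.99 CPM on days 1 and 14 and at 7.69 against 4.95 CPM in the sort, while Pi16 was at 0.210 and 0.557 CPM on days 1 and 14 and at 0.509 against 0.777 CPM in the sort. The median Log2FC of the list was -0.18 at day 14 and -0.63 in the sort. Of 7 chondrocyte markers 2 of the 3 tested were higher in CD61high, Sox9 (36.7 against 94.5 CPM, Log2FC 1.37, adjusted p = 2.0e-06) and Col2a1 (0.556 against 2.00 CPM, Log2FC 1.83, adjusted p = 5.0e-04), and the summed level of the list was 38.2 to 47.4 CPM in CD61low and 97.4 to 113.8 CPM in CD61high. At day 14 against day 1, Matn3 was lower (Log2FC -2.61) and no other of the 5 tested was called, among them Col9a1, which passed the filter only through day 14. The sums were 87.1 to 89.9 CPM at day 1 and 103.3 to 122.2 CPM at day 14. Of 5 adipocyte markers only Cebpa was above 1 CPM, and the list summed to 10.5 to 11.0 CPM at day 1, 28.0 to 29.9 CPM at day 10, the highest day as for decorin, and 17.3 to 18.7 CPM at day 14, and to 17.4 to 20.4 CPM in CD61low and 13.8 to 14.5 CPM in CD61high, while Adipoq, Plin1, Pparg and Lpl stayed below 0.24 CPM. The part of all these genes in the members' values was not tested.

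**Figure D4:**
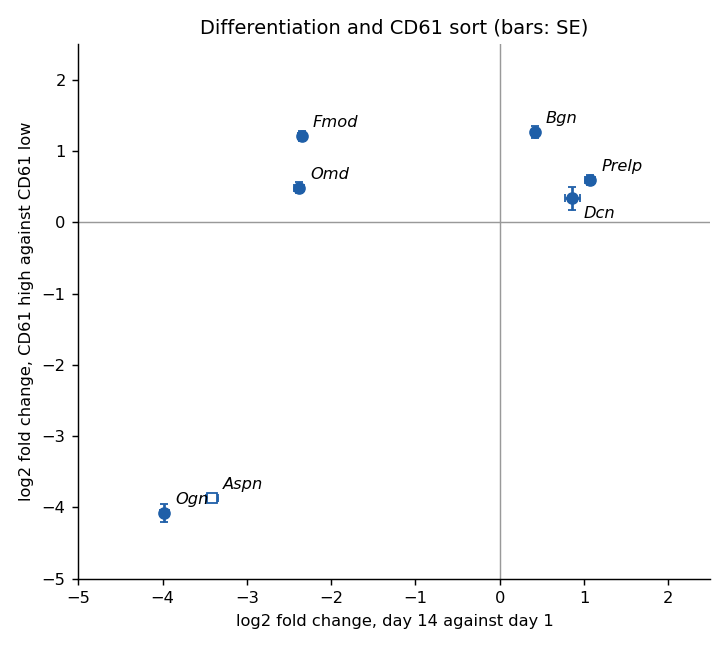
Log2FC of each member at day 14 against day 1 (x axis) and in CD61high against CD61low (y axis), with SE bars. Ogn and Aspn lie at the lower left, Fmod and Omd at the upper left and Bgn, Prelp and Dcn at the upper right, and the open square marks Aspn, whose sort value of -3.87 comes from the fit without a filter.

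Genes next to the members gave no single pattern. Before asporin on chromosome 13 lies Ecm2, an extracellular matrix gene with leucine-rich repeats, which fell from 3.42 CPM at day 1 to 0.557 CPM at day 14 (Log2FC -1.50, adjusted p = 8.0e-10) and had a Log2FC of -0.71 in the sort (adjusted p = 0.086). After osteoglycin lies Nol8, a nucleolar protein gene, at 43.0 CPM at day 1 and 32.6 CPM at day 14 (Log2FC -0.39), which was not called. In the sort Nol8 was at 28.9 CPM in CD61low and 15.4 CPM in CD61high (Log2FC -0.90, adjusted p = 6.8e-05, edgeR), under the fold threshold. On chromosome 1, Optc, which encodes the eye proteoglycan opticin, lies 1.06 kb from Prelp and was at 1.31 CPM at day 1 and 0.113 CPM at day 14 (Log2FC -1.05, adjusted p = 1.8e-06). It was tested only because of its day 1 level, the other days being below 1 CPM. On the other side of Fmod, the growth-arrest gene Btg2 was at 9.68 and 13.01 CPM at days 1 and 14 (Log2FC 0.39). Beside biglycan on the X chromosome (chrX:72527208-72539541), Haus7, a mitotic spindle gene, fell from 87.6 to 34.4 CPM (Log2FC -1.33, adjusted p = 7.8e-17), while Atp2b3, a calcium pump gene, stayed below 0.1 CPM on every day. On chromosome 10, Ccer1, next to Epyc, had 0 reads and Btg1, 857 kb before Dcn, was at 56.0 and 87.2 CPM (Log2FC 0.63). In the sort, Haus7, Btg2 and Btg1 had Log2FC of -0.65, 0.21 and 0.27, none past the fold threshold.

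**Figure D5:**
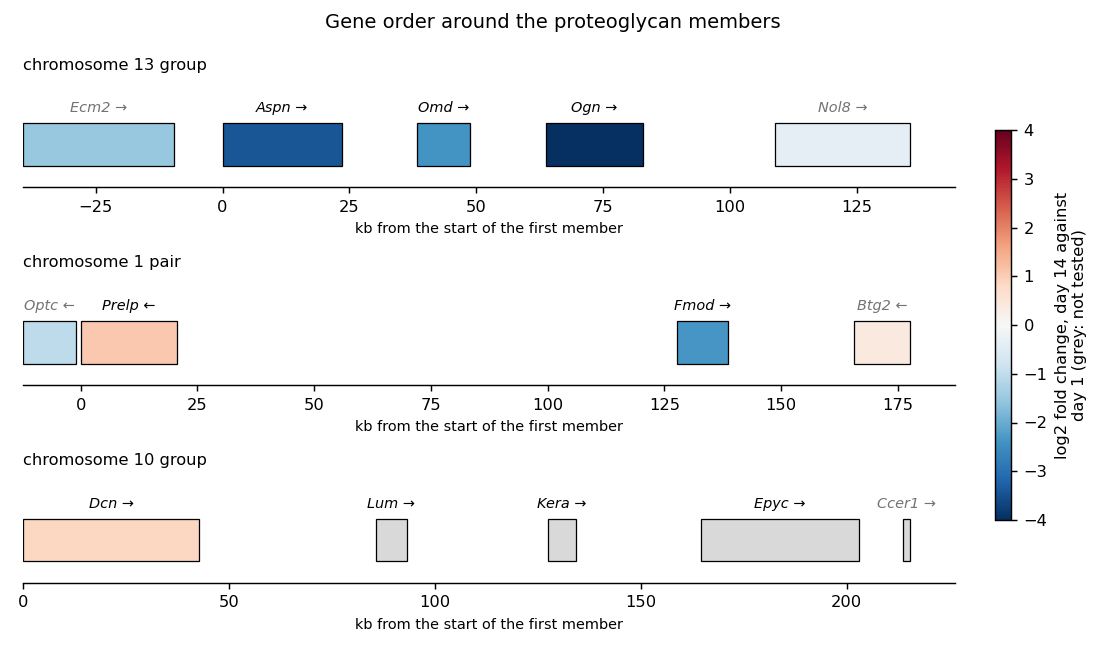
Members (black names) and neighbouring protein-coding genes (grey names) of the 3 chromosomal groups drawn to scale (x axis, kb from the start of the first member), with arrows for strand and colour for Log2FC at day 14 against day 1. Ecm2, Aspn, Omd and Ogn are all blue (lower), Prelp and Fmod have opposite colours, and Cenpp, which overlaps the chromosome 13 genes, and Btg1, which lies 857 kb away, are left out.

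Genes that work with these proteins were counted from lists of related function, to be read beside the 7.51% of all genes tested that were higher and the 5.90% that were lower at day 14, and the 4.84% higher and 4.37% lower in the sort. Of 7 tested other leucine-rich repeat matrix genes, 4 were lower at day 14 (Podnl1, Ecm2, Tsku and Optc, of which Tsku was named after its value was seen). Optc and Chad passed the filter of 1 CPM only through their day 1 libraries, so that the count favours lower calls and no list median is given. Podnl1 fell from 78.7 ± 1.06 to 25.7 ± 0.515 CPM (SD, n = 2; adjusted p = 1.3e-18). In the sort, edgeR and DESeq2 each called 0 of the 4 tested, and 2 had an unadjusted p below 0.05 in edgeR. Of 12 tested fibrillar and fibril-bound collagens that family members bind, 1 was higher and 4 were lower at day 14. Col3a1 fell from 3326 ± 68.9 to 279.7 ± 10.7 CPM (Log2FC -3.57) and Col12a1 from 2186 ± 79.1 to 418 ± 5.63 CPM (Log2FC -2.38), while Col11a2 rose from 128 ± 0.993 to 1411 ± 79.4 CPM (Log2FC 3.45). In the sort 7 of 12 collagens were higher and 1 was lower, with a median Log2FC of 1.13 against 0.00 for all genes. The lower one was again Col3a1, at 87.5 ± 4.41 CPM in CD61low and 22.2 ± 2.39 CPM in CD61high (SD, n = 3; Log2FC -1.98, adjusted p = 2.8e-07, edgeR).

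Of 10 tested proteases that cut these proteins or collagen, or help to, 6 were lower at day 14 and none higher, with a median Log2FC of -1.12 against -0.03 for all genes. At an unadjusted p below 0.05 in limma 0 of the 10 were higher, and edgeR on recovered reads also called 0 higher and 6 lower. Tll1, a tolloid protease that can process procollagen and biglycan, fell from 5.36 to 0.575 CPM (Log2FC -2.02) and the gelatinase Mmp2 from 1108 to 375.5 CPM (Log2FC -1.56). In the sort 3 of 9 tested were higher and 1 lower. The collagenase Mmp13 was at 3.44 ± 0.504 CPM in CD61low and 29.7 ± 1.77 CPM in CD61high (Log2FC 3.11, adjusted p = 2.0e-07), and Bmp1, the procollagen C-proteinase that also processes biglycan, was at 240.0 ± 19.3 and 642 ± 22.3 CPM (Log2FC 1.42, adjusted p = 5.1e-07). Adamts1 was lower in CD61high (Log2FC -1.85).

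Enzymes that build the sugar chains were called in both directions. Of 14 tested genes for chondroitin and dermatan sulfate chains 3 were higher and 3 lower at day 14, the chondroitin 4-O-sulfotransferase gene Chst11 rising from 33.1 to 92.4 CPM and the chain polymerizing factor Chpf falling from 135 to 48.3 CPM. In the sort, 1 of 12 was called, Chst15, at 24.7 ± 1.57 CPM in CD61low and 74.3 ± 2.02 CPM in CD61high (Log2FC 1.59). Of 6 tested keratan sulfate genes 1 was higher and 1 lower at day 14, B3gnt7, which passed the filter only through day 14, and the sulfotransferase gene Chst2 falling from 89.0 to 22.4 CPM (Log2FC -1.94), and 1 of 5 was lower in the sort, B4galt4 (Log2FC -1.77). Of 7 genes for the linker sugars that start a chain, 1 was called at day 14, Xylt1, the xylosyltransferase that begins the linker, which rose from 3.76 to 9.09 CPM (Log2FC 1.09). In the sort edgeR and DESeq2 each called 0 of these 7, and 1 had an unadjusted p below 0.05 in edgeR. Among 10 genes that supply sulfate and sugar, Ugdh was higher at day 14 (Log2FC 1.20) and Papss2, which makes the sulfate donor, was higher in CD61high (Log2FC 1.07).

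Other proteoglycan core proteins were also called in both directions. Of 15 tested, 4 were higher and 3 lower at day 14, and 3 were higher and 1 lower in the sort. The syndecan Sdc3 rose from 205 ± 0.753 CPM at day 1 to 1963 ± 29.1 CPM at day 14 (Log2FC 3.26) and was at 1076 ± 165 CPM in CD61low and 2956 ± 205 CPM in CD61high (Log2FC 1.46). Versican (Vcan), a large chondroitin sulfate proteoglycan, fell from 16.3 to 4.08 CPM by day 14 (Log2FC -1.80) and was lower in CD61high (Log2FC -2.08). Of 15 tested growth factors and receptors known as partners of the family, 2 were higher and 4 lower at day 14, with Tgfb3 falling from 224 to 38.8 CPM (Log2FC -2.50), Met, a receptor that decorin binds, from 36.7 to 5.20 CPM (Log2FC -2.61), and the receptor Tgfbr1 rising from 39.6 to 89.4 CPM (Log2FC 1.15). In the sort Tgfb1 and Tgfb2 were higher in CD61high (Log2FC 1.29 and 1.18), and Met and Egfr were lower (Log2FC -2.80 and -1.54).

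The genes whose course over the 8 differentiation libraries was most like that of each member were found by the root mean square difference of centred log2(CPM + 1) among the 10313 genes whose mean reached 5 CPM. Nearest to osteoglycin was Npr3, the natriuretic peptide clearance receptor, with a difference of 0.22 and CPM of 99.3, 9.42, 3.89 and 6.51 on days 1, 7, 10 and 14. Npr3 was also lower in CD61high (Log2FC -5.12, adjusted p = 8.4e-08), whereas Col6a5, the second nearest, was higher there (Log2FC 1.53) and Actg2, a smooth muscle actin and the next in order, was not tested in the sort. Nearest to asporin were Fbn1, a fibrillin of elastic microfibrils (0.14), Plscr2 and Lratd2, which were all lower in CD61high, with Log2FC of -2.71, -3.17 and -1.82. Nearest to osteomodulin were Kctd12 (0.14), Loxl1, a lysyl oxidase family member, and Trabd2b, all with a higher mean at day 10 than at day 7. In the sort their Log2FC had the opposite sign to that of osteomodulin, -0.48 for Kctd12, which was not called, and -1.20 for Loxl1 and -1.65 for Trabd2b, which were lower in CD61high. Nearest to fibromodulin was the collagen gene Col12a1 (0.058), at 2186, 471, 443 and 418 CPM, which had a Log2FC of 0.46 in the sort that was not called. The second nearest, Vgll3, was lower in CD61high (Log2FC -2.63), and Lrrc75b, the next, had a Log2FC of -0.96 there that was not called. Nearest to decorin were Zfp704 (0.089), Slc25a10 and Psd3, to biglycan Tmem230 (0.047), Dynlt3 and Ppfibp1, and to Prelp Tuft1 (0.035), C1galt1 and Zfp518a. None of these genes passed the fold threshold in the sort, where their Log2FC lay between -0.51 (Zfp704) and 0.86 (Slc25a10).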

How the data were processed

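RNA was sequenced from Ocy454 cells in 14 libraries, grouped by their labels. For differentiation the authors used STAR for alignment and HTSeq for counting, and deposited CPM with no further scaling between libraries. All CPM values (100%) were whole multiples of 1 read within 0.01 read, so that reads could be recovered. For the sort the authors ran Salmon on GRCm39 transcripts and deposited estimated counts, not normalized, and TPM per transcript. Versions of STAR, HTSeq and Salmon are not given in the sources used here. RNA kits differed between the 2 experiments, which were analysed apart.

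Estimated counts were summed per gene (GENCODE M39), rounded, TMM-scaled over all genes and tested with edgeR 4.0.16 (quasi-likelihood). CPM were tested as log2(CPM + 1) with limma 3.58.1 (eBayes with trend, 4 days in one fit) in R 4.3.3, so that fold changes of low genes are understated. Adjustment was Benjamini-Hochberg over all genes tested. On simulated counts the limma fit recovered 100% of 200 changed genes for day 14 against day 1 and edgeR 100% of 200 for the sort. Of the unchanged genes limma called 0 and edgeR called 1. Replicates differed by more than counting noise (chi-square per gene 2.35 to 20.8) and were kept apart. The CD61high and CD61low libraries were sorted from the same independent groups of cells, and the main test did not pair them. Where cultures were not separate, p-values measure only the spread between samples. Depth limits a gene at 0 to below 3 reads, counting error only.

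Named were all members, for each list up to 2 called genes in each direction, protein-coding neighbours, and the 3 genes most like each member in differentiation. Tsku, Chad and marker genes were named in addition. Members, lists and motifs were chosen with earlier results of these data known. Promoters of Dcn and Lum and protein sequences were not used here. Alternatives were other pseudocounts, filters, scalings, DESeq2 1.42.0, edgeR on recovered reads, a replicate block and leaving out each library. A levels alternative using the gene length listed in the deposited differentiation table was added after the data had been seen. Figures were drawn with matplotlib 3.10.9.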

Additional observations from a re-analysis of the deposited data

How the results depend on the processing

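Of 504 member values recomputed under the alternatives, 496 kept their side of the threshold, 5 were no longer past it and 3 newly passed it. The sign was that of the reported value in all but 5, none of them a call: fibromodulin at day 14 against day 10 (reported -0.005) was 0.055 with edgeR on recovered reads and with TMM scaling, 0.023 without day 10 replicate 1 and 0.005 without day 14 replicate 1, and decorin in the sort (reported 0.34) was -0.004 with TPM. For day 7 and day 14 against day 1 every member value kept its sign and side. The adjusted p-values varied more. That of fibromodulin at day 14 against day 1 was 2.6e-26 with limma as reported and 4.1e-08 with limma without the trend. Without single libraries the number of members called ranged from 1 to 2 for day 10 against day 7 and for day 14 against day 10: decorin passed the fold threshold without day 10 replicate 1 (Log2FC 1.09, 2 members called), and osteoglycin without day 14 replicate 1 (1.01, 2 called) and with edgeR on recovered reads (1.01, 2 called). In the sort 1 member was called, osteoglycin, with library size scaling alone (biglycan 0.97, fibromodulin 0.91) and with limma on log2(TPM + 1) (biglycan 1.00, fibromodulin 0.90); both settings leave the median of all genes near -0.30 and -0.28. Calls over all genes were then 314 higher and 981 lower with library size scaling, against 585 and 528, and 247 and 701 with TPM. With edgeR on recovered reads 2292 genes were called at day 14 against day 1, and with a pseudocount of 0.1, 2241, against 1707; for day 10 against day 7 these were 550 and 552 against 282, and for day 14 against day 10 731 and 671 against 377. With the gene length listed in the deposited differentiation table, 4 of 8 members kept their place in the order of levels at day 14. The cause of these shifts was not tested. Correlations between libraries of the same replicate number were 0.006 to 0.087 in differentiation and -0.321, 0.220 and -0.061 in the sort. Libraries of different number in the sort ran from -0.406 (CD61high replicate 2 with CD61low replicate 3) to 0.466 (CD61high replicate 1 with CD61low replicate 3). These values cannot show which sorted libraries pair, since the labels do not give the pairs. With the replicate block, which takes equal numbers as pairs, 5 members were called at day 14 against day 1 and 3 in the sort, as without it. In the sort 1083 genes were then called against 1113. Lumican, keratocan and epiphycan are limited by depth.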

Other observations

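In the sorted libraries a single transcript of each detected member carried at least 90.1% of its estimated counts. For biglycan the main transcript held 96.6% to 96.9% of counts in CD61low and 94.7% to 97.7% in CD61high, and for osteomodulin 91.0% to 93.2% and 90.1% to 94.3%, so the ranges of the groups overlapped for both. Osteoglycin has only 1 transcript in the files, and the main transcript of decorin, the only one of its 5 with counts, held 100% in all 6 libraries. In TPM, which weights short transcripts more, the share of the main transcript was lower for some members. It was 82.4% to 84.0% in CD61low and 74.3% to 87.4% in CD61high for biglycan, where Bgn-207, a transcript of 548 bases with no defined coding sequence, held up to 25.4% (CD61high replicate 2). For Prelp it was 87.3% to 100% and 82.3% to 92.0%, the rest being Prelp-202, of 823 bases and also with no defined coding sequence. The TPM level of biglycan above sums over its transcripts.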
